A study of Humulus lupulus with 6 samples.

Results

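In hop (Humulus lupulus), head-to-head locus pairs are neighbouring transcribed loci whose left member lies on the minus strand and whose right member lies on the plus strand, so that transcription starts near the stretch between them and runs away from it. Pairs were taken where at most 1000 bases separated the spans and where both loci had a gene model with at least 2 exon blocks in leaf, stem and meristem alike. Of 2588 neighbouring pairs of such loci within that distance, 122 were head-to-head (4.71%), and their 244 loci lay on 114 contigs. Tail-to-tail pairs, whose transcripts run towards each other and end near each other, numbered 814, and 1652 pairs were on the same strand.

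The RNA came from the young leaf, the growing stem and the apical meristem of glasshouse plants of the cultivar Cascade, which received no treatment besides sprays against insects and fungi. The labels list 2 samples for each tissue, while their protocols speak of a single library. Each tissue has 1 count column, and its name does not tell which of the samples it holds. Gene numbers come without gene names, so loci are given by their position on the contigs of the Cascade assembly the authors used.

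When genes start back to back with a short stretch between them, that stretch can serve both as a bidirectional promoter. In plants, as in other eukaryotes, some such pairs are known to be expressed together, while many are not. In tail-to-tail genes the shared stretch lies at the ends of transcription, which makes them the natural comparison for pairs that are close but share no start region. Neighbours on the same strand form another comparison, with the reservation that 1 gene assembled in pieces also looks like such a pair.

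The counted fragments numbered 162799212 in leaf, 125454712 in stem and 135877224 in meristem. The member loci took 1.17% of them in leaf, 0.576% in stem and 0.724% in meristem, and made up 1.05% of the 23213 loci that met the limits on models and exon blocks, hereafter the comparison set. No member had a count of 0, and the lowest counts were 5 fragments in leaf, 15 in stem and 29 in meristem. With 1 column per tissue, no difference in this text could be set against the spread between plants or libraries, and no p-value was computed. The intervals printed here are exact binomial 95% intervals. Over fragments they cover counting error only, and over pairs they treat neighbouring loci as independent draws.

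Head-to-head pairs were few beside tail-to-tail pairs at the same distance. They made up 13.0% of the opposite-strand pairs (10.9 to 15.4), and 6.67 tail-to-tail pairs were found for each of them. The distance between head-to-head spans ran from 20 to 986 bases with a median of 300, against 2 to 996 bases with a median of 325 in tail-to-tail pairs. Very short distances were rarer among head-to-head pairs, of which 5.74% (7 pairs) were at most 100 bases apart, against 16.1% (131 pairs) of the tail-to-tail pairs. Distances up to 250 bases were found in 47 head-to-head pairs, 251 to 500 bases in 44 and 501 to 1000 bases in 31.

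**Figure D1:**
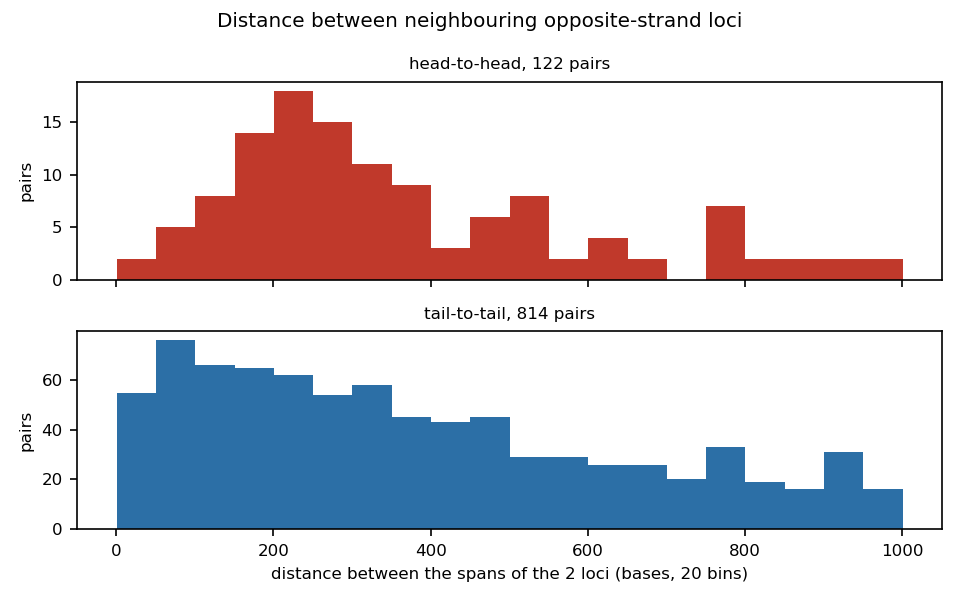
Distance in bases between the spans of neighbouring opposite-strand loci (x axis, 20 bins) against the number of pairs (y axis), for the 122 head-to-head pairs above and the 814 tail-to-tail pairs below. The head-to-head distances have their median at 300 bases with 7 pairs at or under 100 bases, while 131 tail-to-tail pairs lie there.

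The distance between members was not the same in the models of every tissue. The span of a locus covers its models in all tables, so the distance used here is the shortest that the tables give together. Measured between the models of a single tissue, the median distance was 445 bases in leaf, 393 in stem and 363 in meristem. It varied by at most 50 bases over the tissues in 31 pairs and by over 500 bases in 26. In 27 pairs it passed 1000 bases in at least 1 tissue, up to 7054 bases. The inner end of a locus, that is its start in a head-to-head pair, differed over the tissues by a median of 52 bases, against 58 bases for the inner ends, the 3′ ends, of tail-to-tail loci.

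The member loci were close to the comparison set in build and level. They had a median of 5 exon blocks in every tissue, as did all 23213 loci of the comparison set, and between 2 and 27 blocks over the tissues. Their median normalised CPM (fragments relative to the table's total, scaled between tissues) was 12.6 in leaf, 8.88 in stem and 12.0 in meristem, against 10.8, 9.85 and 11.2 over the comparison set. Tail-to-tail loci had higher medians of 17.4, 13.7 and 16.2, so head-to-head and tail-to-tail pairs were not matched in level. The highest normalised CPM of a member locus was 5827 in leaf, 314 in stem and 572 in meristem. The exon numbers of a pair were rarely equal, at 14 of 122 head-to-head pairs in leaf (11.5%) and 8.48% of the tail-to-tail pairs.

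Leaf was the tissue with the highest level at 109 of the 244 member loci (44.7%), stem at 60 (24.6%) and meristem at 75 (30.7%). Over the comparison set these shares were 32.5% for leaf, 36.8% for stem and 30.6% for meristem. The fold of leaf over stem was above 1 at 61.5% of member loci, against 56.4% of tail-to-tail loci and 50.1% of the comparison set. The median log2 fold of the members was 0.34 for leaf over stem, 0.16 for leaf over meristem and -0.18 for stem over meristem, and over the comparison set it was 0.00, -0.08 and -0.03. The folds of members also spread less between stem and meristem, with a standard deviation over loci of 1.22 (log2) against 1.85 over the comparison set.

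The main question was whether the loci of a head-to-head pair share their tissue pattern. For leaf over stem they did so in part. The log2 folds of the left and right locus had a Pearson correlation of 0.36 and a Spearman correlation of 0.38 over 122 head-to-head pairs, against 0.02 and 0.03 over 814 tail-to-tail pairs. Both folds had the same sign in 82 head-to-head pairs (67.2%, interval 58.1 to 75.4) and in 52.5% of tail-to-tail pairs (49.0 to 55.9). Over all 269410078 possible pairs of 2 loci of the comparison set, a value computed exactly with no draws, the share was 50.0%. All values of a comparison come from the same 2 columns, and loci are not independent replicates.

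The picture was alike for leaf over meristem, and this comparison uses the same leaf column. The correlations were 0.32 (Pearson) and 0.35 (Spearman) in head-to-head pairs, against -0.02 and -0.04 in tail-to-tail pairs. The same sign was found in 80 head-to-head pairs (65.6%, 56.4 to 73.9), in 50.9% of tail-to-tail pairs (47.4 to 54.3) and in 50.1% of all possible pairs.

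No agreement was seen for stem over meristem. The correlations were 0.015 (Pearson) and -0.011 (Spearman) over head-to-head pairs, against 0.00015 and -0.046 over tail-to-tail pairs. The same sign was found in 61 of 122 head-to-head pairs (50.0%, 40.8 to 59.2), 47.3% of tail-to-tail pairs (43.8 to 50.8) and 50.0% of all possible pairs. The interval of the head-to-head share leaves room for a share up to 59.2%. Whether the agreement differs between the comparisons was not tested.

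**Figure D2:**
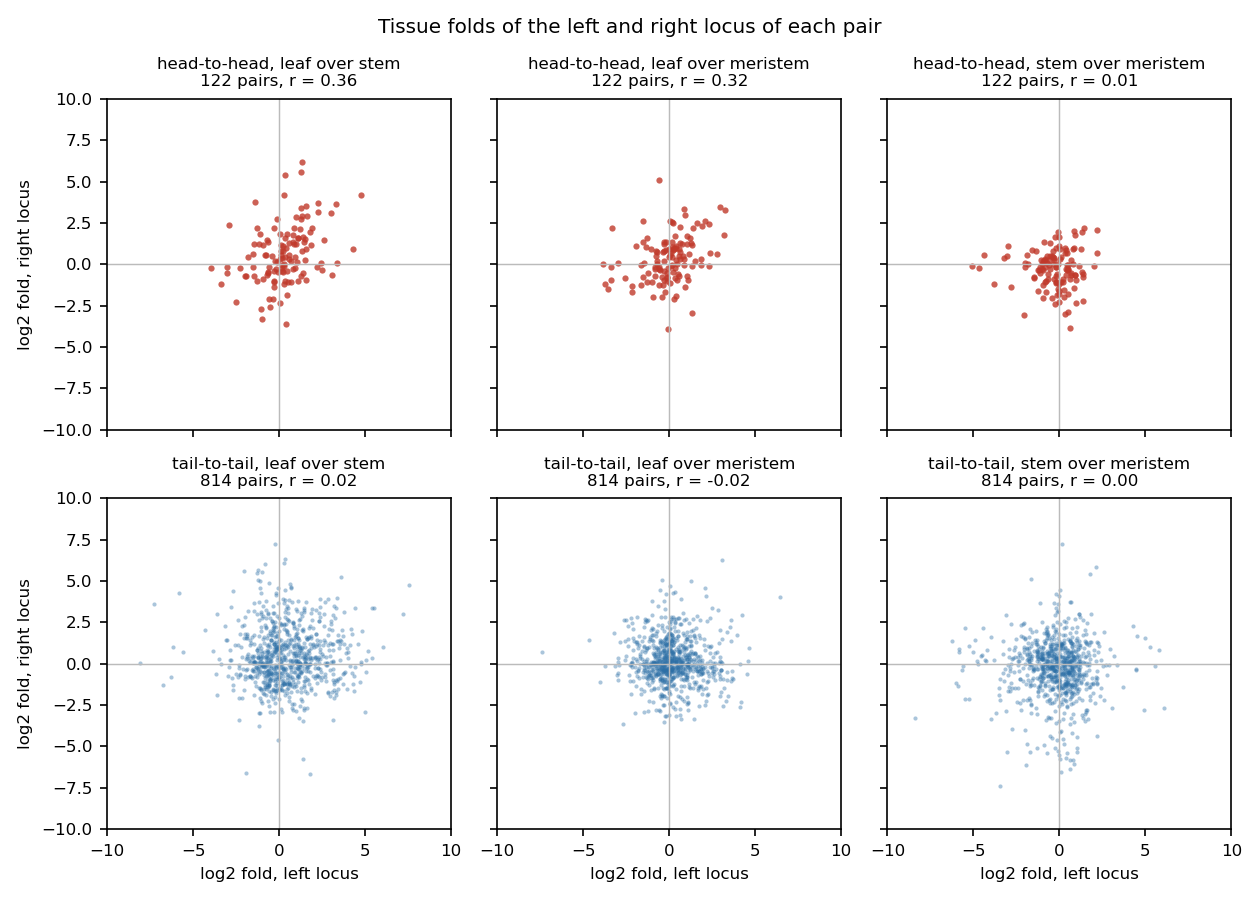
Log2 fold of the left locus (x axis) against that of the right locus (y axis), 1 point per pair, for 122 head-to-head pairs (upper row) and 814 tail-to-tail pairs (lower row) in leaf over stem, leaf over meristem and stem over meristem. Head-to-head points lean along the rising diagonal in both comparisons with leaf (r of 0.36 and 0.32) and form a round cloud in stem over meristem (r of 0.015), as tail-to-tail points do in all panels.

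Same-strand neighbours agreed more than head-to-head pairs. Their Pearson correlations were 0.58 for leaf over stem, 0.55 for leaf over meristem and 0.62 for stem over meristem, with the same sign in 76.8%, 74.0% and 75.0% of 1652 pairs. In these pairs the agreement was present in all comparisons, also between stem and meristem.

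**Figure D3:**
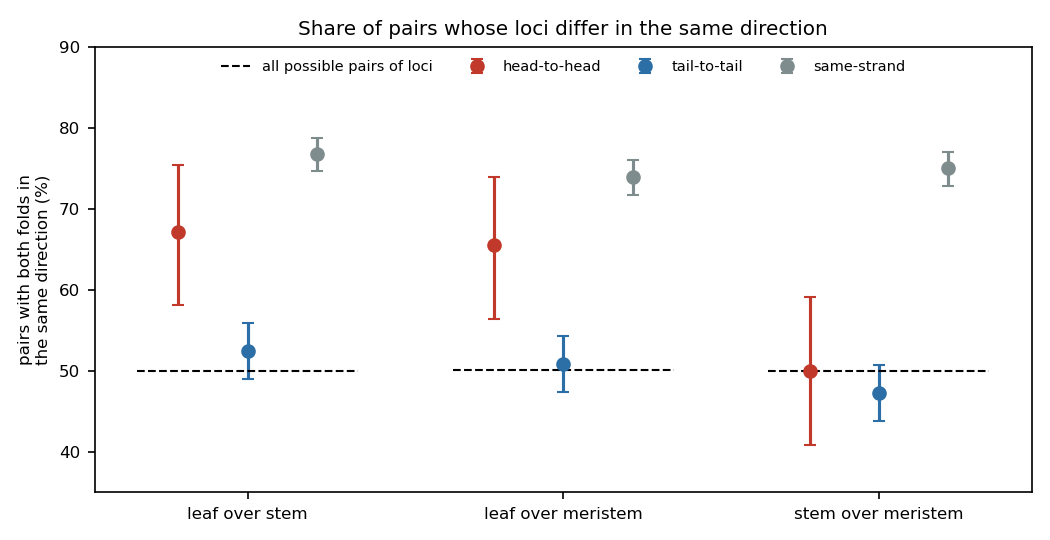
Percentage of pairs whose 2 loci differ in the same direction (y axis) in each comparison (x axis), for head-to-head, tail-to-tail and same-strand pairs, with exact binomial 95% intervals over pairs as bars and the value over all possible pairs of loci as a dashed line. Head-to-head pairs lie at 67.2%, 65.6% and 50.0%, tail-to-tail pairs at 52.5%, 50.9% and 47.3%.

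A further view is given by the pairs in which both loci differed by at least 2-fold. There were 33 such head-to-head pairs for leaf over stem, and in 26 of them (78.8%, 61.1 to 91.0) both loci went the same way, in 22 pairs towards leaf and in 4 towards stem. Among tail-to-tail pairs 121 of 213 went the same way (56.8%, 49.9 to 63.6), in 99 pairs towards leaf and in 22 towards stem. Between leaf and meristem it was 19 of 26 head-to-head pairs (73.1%, 52.2 to 88.4), 13 of them with both loci higher in leaf, against 62 of 138 tail-to-tail pairs (44.9%, 36.5 to 53.6). Where most loci differ towards leaf, as in these pairs, unrelated loci also share a direction more often. The shares do not take this into account. How much of the difference between the kinds of pairs goes with the lean towards leaf was not tested. Between stem and meristem only 9 head-to-head pairs qualified, 7 of them with the same direction, and 88 of 165 tail-to-tail pairs (53.3%) had it. The 2 folds of a pair were less than 2-fold apart for leaf over stem in 45.9% of head-to-head pairs (36.8 to 55.2) and 32.1% of tail-to-tail pairs (28.9 to 35.4). For leaf over meristem these shares were 53.3% and 42.8%. They were 46.7% and 36.1% for stem over meristem, where the signs and correlations showed no agreement. Closeness also depends on how widely folds spread, and the folds of members spread less than those of the comparison set in every comparison. The part of the difference that goes with this spread was not tested.

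Agreement in the tissue of highest level was weaker. Both loci peaked in the same tissue in 52 head-to-head pairs (42.6%, 33.7 to 51.9), against 34.0% of tail-to-tail pairs (30.8 to 37.4) and 33.5% of all possible pairs. The shared tissue was leaf in 33 pairs, stem in 9 and meristem in 10. Single member loci also peaked in leaf more often than the comparison set (44.7% against 32.5%), which the value over all possible pairs does not take into account. How much of the difference goes with this was not tested.

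Which pairs count as neighbours bears on these values. Neighbours were taken in the order of their starts among all loci, which leaves out pairs whose left locus is overlapped by a locus starting inside it, so that 2 left loci but 21 right loci of members were overlapped on the other strand. When all other loci were ignored, 158 pairs met the limits, and the Pearson correlation was 0.30 for leaf over stem, 0.20 for leaf over meristem and 0.04 for stem over meristem. The 36 pairs added in this way, which have another locus between or across them, had correlations of 0.14, -0.27 and 0.12 in the same order. Without the 23 member pairs in which a locus was overlapped on the other strand, the correlations were 0.31, 0.34 and 0.02.

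Within the limit of 1000 bases the order of the distance classes depended on the measure of agreement. For leaf over stem the Pearson correlation was 0.19 in the 47 pairs up to 250 bases apart, 0.43 in the 44 pairs from 251 to 500 bases and 0.53 in the 31 pairs from 501 to 1000 bases. For leaf over meristem it was 0.32, 0.34 and 0.39 in the same order. For stem over meristem it was -0.14, 0.09 and 0.12. The share of pairs with the same sign, in the same order of distance, was 66.0%, 72.7% and 61.3% for leaf over stem, 66.0%, 63.6% and 67.7% for leaf over meristem, and 57.4%, 43.2% and 48.4% for stem over meristem. The 95% intervals of these shares overlapped between the classes in every comparison. Beyond the limit, 62 head-to-head neighbours from 1001 to 2000 bases apart had correlations of 0.15 for leaf over stem, 0.15 for leaf over meristem and 0.12 for stem over meristem. Over all 280 head-to-head neighbours from 1001 to 10000 bases apart the values were 0.20, 0.04 and 0.18. In tail-to-tail pairs up to 1000 bases apart, no distance class had a correlation above 0.10 in any comparison.

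**Figure D4:**
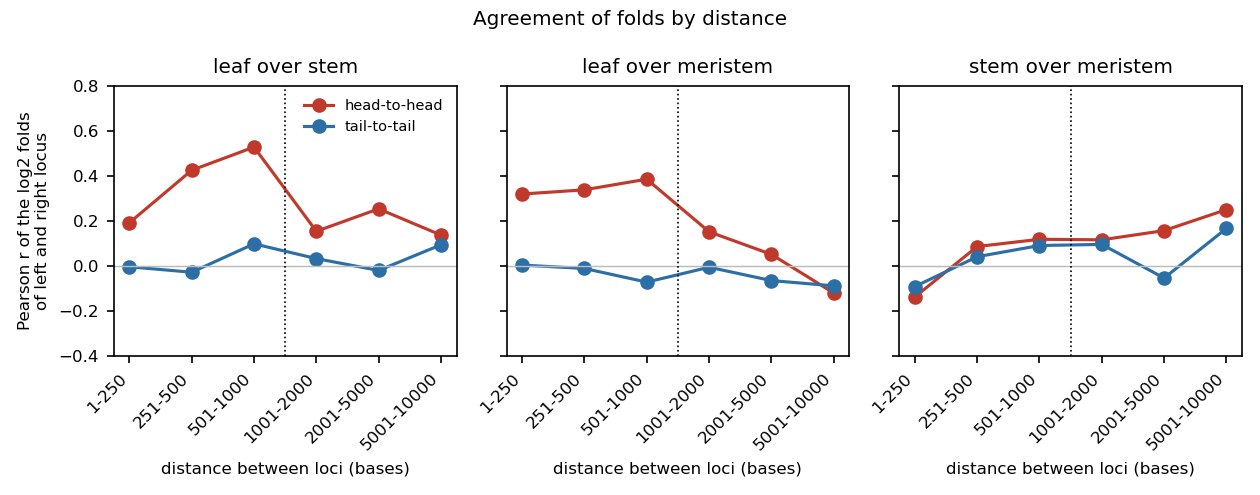
Pearson correlation of the log2 folds of the left and right locus (y axis) by the distance between them (x axis, in bases), for head-to-head and tail-to-tail neighbours in each comparison. The dotted line marks 1000 bases, and head-to-head values to its left reach 0.53 for leaf over stem and 0.39 for leaf over meristem.

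Levels were little related within a pair. On the scale of normalised CPM per kb of model, the correlation of the log2 levels of the 2 loci in head-to-head pairs was 0.21 in leaf, 0.01 in stem and 0.12 in meristem (Pearson), against 0.13, 0.19 and 0.14 in tail-to-tail pairs. Levels differed by over 10-fold in 25 head-to-head pairs in leaf, 25 in stem and 17 in meristem. These were 20.5%, 20.5% and 13.9% of the pairs, against 22.2%, 20.6% and 18.2% of tail-to-tail pairs. In meristem the levels of 57 head-to-head pairs (46.7%, 37.6 to 56.0) were within 2-fold of each other, against 31.2% of tail-to-tail pairs (28.0 to 34.5). The log2 levels of the loci in meristem also spread less among head-to-head members, with a standard deviation of 1.70 against 1.92 among tail-to-tail loci. In leaf the share within 2-fold was 32.8% (24.6 to 41.9) of head-to-head and 28.6% of tail-to-tail pairs, and in stem 34.4% (26.1 to 43.6) and 28.0%.

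A locus was compared between 2 tissues where the higher of them reached 10 normalised CPM, and called where the fold was at least 4. For leaf over stem 154 of the 244 member loci were compared. Of these 29 were called higher in leaf (18.8%), where the background over all 16528 loci compared was 18%, and 7 were called lower (4.55%, background 10.4%). The backgrounds in this paragraph cover every joined locus with a model in both tissues compared. They thus include unspliced loci and loci with no model in the remaining tissue, unlike the comparison set. For leaf over meristem 166 were compared, with 24 higher in leaf (14.5%, background 10.8%) and 5 lower (3.01%, background 6.36%). For stem over meristem 151 were compared, with 3 higher in stem (1.99%, background 9.63%) and 12 lower (7.95%, background 12.9%). Most called members kept a 4-fold difference per base of model, at 34 of 36 loci for leaf over stem, 27 of 29 for leaf over meristem and 12 of 15 for stem over meristem.

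The head-to-head neighbours of loci called higher in leaf were mostly higher in leaf too. Of all member loci, whatever their neighbour, 61.5% were higher in leaf than in stem and 55.7% higher than in meristem. These shares were 56.4% and 52.7% of tail-to-tail loci. For leaf over stem 24 of 29 head-to-head neighbours of loci called higher in leaf were higher too (82.8%, 64.2 to 94.2). Their log2 fold had a median of 1.29 and ran from -1.37 to 4.75. The tail-to-tail neighbours of called loci were higher in leaf in 132 of 220 cases (60.0%, 53.2 to 66.5), with a median of 0.35. For leaf over meristem 20 of 24 head-to-head neighbours went the same way (83.3%, 62.6 to 95.3) with a median of 1.15, against 62 of 124 tail-to-tail neighbours (50.0%) with a median of -0.02. For loci called lower in leaf the neighbours were lower too in 5 of 7 head-to-head cases against stem (median log2 fold -0.24) and in 2 of 5 against meristem (median 0.29), while tail-to-tail neighbours were lower in 27 of 65 and 19 of 53 cases. For stem over meristem the neighbours of the 3 loci called higher in stem were all higher (median 1.41), and those of the 12 called lower were lower in 6 cases and higher in 6, against 26 of 59 and 64 of 140 tail-to-tail neighbours in the same direction. A neighbour that is called itself counts once from each side.

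Few pairs had both loci called. Both loci could be compared in only 48 of the 122 head-to-head pairs for leaf over stem, 57 for leaf over meristem and 49 for stem over meristem. Among the 814 tail-to-tail pairs these numbers were 426, 435 and 415. The shares that follow are over all pairs, including those that could not be called. Between leaf and stem 3 of 122 head-to-head pairs were called together, all higher in leaf (2.46%, 0.51 to 7.02), against 1.97% of tail-to-tail pairs and 1.34% of all possible pairs. No head-to-head pair was called in opposite directions, which allows a share of up to 2.98% (exact binomial), against 11 of 814 tail-to-tail pairs and 1.16% of all possible pairs. Between leaf and meristem 4 pairs were called together, all higher in leaf (3.28%, 0.90 to 8.18), against 1.11% of tail-to-tail pairs and 0.445% of all possible pairs, and 1 was called in opposite directions (0.82%, against 0.403% of all possible pairs). Between stem and meristem 1 pair was called together, lower in stem (0.82%, 0.02 to 4.48), against 1.11% of tail-to-tail and 0.766% of all possible pairs, and none in opposite directions, against 0.709% of all possible pairs. The intervals of the head-to-head shares contain the tail-to-tail shares in all 3 comparisons. Without scaling factors, 1 pair was called together for leaf over stem and 1 for leaf over meristem, so these counts rest on the scaling.

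The pairs called together in leaf are 5 in number. On contig 007648F a locus at 71374 to 73507 with 2 exon blocks in leaf and meristem and 3 in stem (minus strand, STRG.48425 in leaf) and a 13-exon locus at 74272 to 78239 (plus strand, STRG.48426 in leaf) were 764 bases apart and were called together in both comparisons with leaf. The left locus had 77.2 normalised CPM in leaf, 16.1 in stem and 9.91 in meristem. The right locus had 515 in leaf, 56.4 in stem and 47.4 in meristem. Both were thus highest in leaf by a wide margin, with the right locus the more abundant in every tissue. The left locus was 4.81-fold higher in leaf than in stem (4.59 to 5.03) and 7.79-fold higher than in meristem (7.39 to 8.23). The right locus was 9.12-fold (8.91 to 9.33) and 10.9-fold (10.6 to 11.1) higher.

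The pair on contig 004913F was also called together against both tissues, and the lower of its loci per kb of model, the left with 113 normalised CPM per kb in leaf, stood above that of any other head-to-head pair. It holds an 11-exon locus at 55984 to 59760 and a locus of 7 exons in leaf at 60061 to 62238, 300 bases apart, with inner distances of 301 bases in leaf, 360 in stem and 350 in meristem. The left locus had 144 normalised CPM in leaf, 30.0 in stem and 33.5 in meristem. The right locus had 97.2, 7.48 and 15.9 in the same order. Leaf was 4.79-fold above stem at the left locus (4.63 to 4.95) and 13.0-fold at the right locus (12.2 to 13.9), so the direction was shared and the size was not.

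On contig 005178F the 2 loci ran closely parallel. The left locus (2786 to 5336, 8 exons in leaf) had 138 normalised CPM in leaf, 48.8 in stem and 28.0 in meristem, and the right locus (5499 to 7616, 5 exons), 162 bases away, had 73.4, 25.5 and 13.7. The folds of leaf over stem were 2.83 and 2.88, those of leaf over meristem 4.93 (4.77 to 5.10) and 5.35 (5.11 to 5.61), and those of stem over meristem 1.74 and 1.86. At each comparison the folds of left and right locus thus lay within 10% of each other. The lower of its loci per kb of model, the right with 93.2 normalised CPM per kb in leaf, ranked next after that on contig 004913F.

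On contig 007120F, loci at 83420 to 85922 and 86211 to 89311 lay 288 bases apart. The left locus had 84.0 normalised CPM in leaf, 34.9 in stem and 8.76 in meristem, and the right locus had 10.6, 1.01 and 1.10. Leaf over meristem was 9.59 at the left locus (9.06 to 10.1) and 9.65 at the right locus (8.23 to 11.4), which is the same within counting error, but per base of model the folds were 9.61 and 7.09, since the model of the right locus had 1423 exon bases in leaf and 1046 in meristem. In stem the loci parted, since stem over meristem was 3.98-fold higher at the left locus and 1.09-fold lower at the right, with a counting interval (0.87 to 1.37) that includes no difference.

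The largest shared difference between leaf and stem was on contig 000069F. The left locus (1602248 to 1607622) had 13.7 normalised CPM in leaf, 0.509 in stem and 7.22 in meristem, and the right locus, 764 bases away, had 798, 44.2 and 102. Leaf was 26.9-fold above stem at the left (21.2 to 34.5, on 72 fragments in stem) and 18.0-fold at the right (17.6 to 18.5), or 16.8-fold and 14.3-fold per base of model. The right locus is unusual in that it spans 1608387 to 2111452 with only 2689 bases of exon in leaf, is overlapped on the other strand and holds 2 models each in stem and meristem. Whether it is 1 gene is not known from the tables.

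Other named pairs differed in direction between their loci. On contig 005809F, 562 bases apart, the left locus (82816 to 91351) had 1.27 normalised CPM in leaf, 0.601 in stem and 12.6 in meristem, and the right locus (91914 to 95498) had 33.5, 11.0 and 7.47. In leaf over meristem the left was 9.89-fold lower (8.41 to 11.7) and the right 4.49-fold higher (4.20 to 4.79), the only pair called in opposite directions in any comparison. The left locus was assembled as 3 models of 1036 bases together in leaf and as 1 model of 2087 bases in meristem, and per base it was 4.91-fold lower.

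On contig 001512F, 309 bases apart, both loci were called lower in stem than in meristem, and they differed in leaf. The left locus (702191 to 704937) had 36.0 normalised CPM in leaf, 3.51 in stem and 14.6 in meristem. The right locus (705247 to 709018) had 1.77, 1.68 and 13.9. The left was 4.16-fold lower in stem than in meristem (3.78 to 4.60) and the right 8.29-fold lower (7.25 to 9.52), but per base of model the left was 3.39-fold lower, under the 4-fold limit. Leaf over stem was 10.3 at the left and 1.06 (0.88 to 1.28) at the right, so the left was shared by leaf and meristem and the right was high in meristem alone.

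Both loci of the 2 closest pairs were below the member medians of normalised CPM in every tissue. Per kb of model, the right loci of both pairs were just above the member median of 9.88 in leaf. Their remaining values per kb were below the member medians. On contig 001106F the spans (392995 to 395121 and 395142 to 401566) were 20 bases apart, with 193 bases between the leaf models, 230 between the stem models and 20 between the meristem models. The left locus had 3.24 normalised CPM in leaf, 1.62 in stem and 3.70 in meristem, and the right had 6.92, 2.96 and 3.77, both lowest in stem. On contig 000347F the spans (657715 to 660023 and 660062 to 664282) were 38 bases apart, while the models of the single tissues left 205 bases in leaf, 88 in stem and 203 in meristem. Its left locus had 10.9, 3.80 and 7.37 normalised CPM and its right locus 7.47, 6.15 and 5.32. The left locus on contig 000347F was compared in leaf over stem and in leaf over meristem, and was not called. The other loci of these pairs stayed under 10 normalised CPM in every tissue, so neither pair could be called together.

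**Figure D5:**
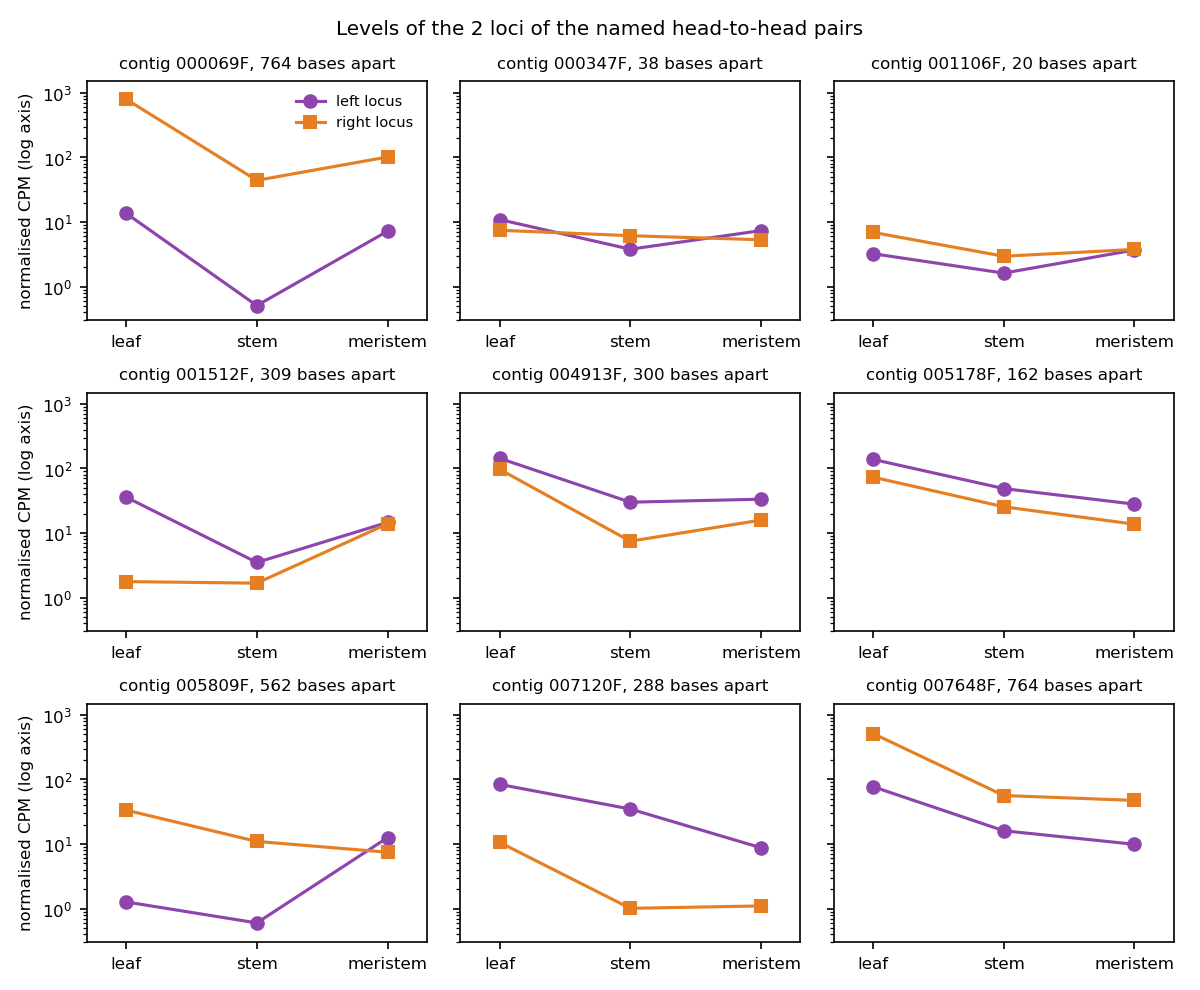
Normalised CPM (y axis, log scale) in leaf, stem and meristem (x axis) of the left and right locus of the 9 head-to-head pairs described by position, 1 value per tissue with no replicate error. Both loci go the same way between all tissues on contigs 005178F (nearly parallel lines), 000069F, 004913F and 007648F, and on the remaining contigs the values go opposite ways between at least 1 pair of tissues. On contig 007120F this rests on a 1.09-fold step of the right locus between stem and meristem, which is within counting error.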

How the data were processed

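RNA-seq counts of leaf, stem and meristem were used. Fragments were counted by the authors with featureCounts 1.6.3, on paired reads with strand setting 1 and with a separate gene model file for each tissue, per the file headers. The deposited values are raw counts. HISAT2 2.1.0 and StringTie 1.3.3b are named in the submitters' processing notes. The sources used here do not give whether the kit marked strand. Where it did not, fragments of the other orientation are not counted. Models shorter in the weaker tissue collect fewer fragments.

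Models sharing at least 1 exonic base on 1 strand were joined into 67811 loci, of which 33811 had a model in all tissues. Counts were summed, divided by table totals and scaled by TMM factors (leaf 0.759, stem 1.13, meristem 1.17) from edgeR 4.0.16 in R 4.3.3. A count of 0 was raised to 3. Exon length per model came from the deposited tables. Python 3.11.15, pandas 2.3.3, numpy 2.4.6, scipy 1.17.1 and matplotlib 3.10.9 did the rest. In place of drawn random pairs, exact values over all possible pairs were used. The fold and CPM limits replace a test, which 1 column per tissue does not allow. The procedure was tested on simulated counts. The RefSeq table of gene names matched 0 gene numbers. Members, comparisons and the naming rule were chosen with earlier results of these data known. That rule took the 2 pairs with the largest shared fold per comparison and direction, the strongest opposite pair, the 2 closest pairs and the 2 with the highest lower level.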

Additional observations from a re-analysis of the deposited data

How the results depend on the processing

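No paired analysis was possible because each tissue has 1 column with no replicate label, and for that reason tests and the removal of single replicates were not run. Of 137 values under 15 alternatives, 2 of which were added after seeing the data, 118 stayed within 0.1 (correlations), the 95% interval (shares) or 1.5 times (counts). The 118 include correlations that could not move. Alternatives that change only the scaling factors shift all log2 folds of a comparison by the same amount, so they leave the Pearson correlation as it was. Shares had wide room, from 58.1% to 75.4% in the same-direction share for leaf over stem. Most alternatives also reuse all or part of the same 122 pairs, so the shares had little occasion to move. The values that moved were mostly counts of pairs called together. With a fold of 2 these were 14 for leaf over stem, 10 for leaf over meristem and 3 for stem over meristem. For leaf over stem the count was 1 without scaling factors, 5 with a CPM minimum of 1, 1 up to 500 bases and 5 with neighbours among eligible loci only. For leaf over meristem it was 1 without scaling factors. For stem over meristem it was 2 with a CPM minimum of 1, 0 per base of model, 2 with neighbours among eligible loci only and 2 with no other locus in the gap (138 pairs, added after seeing the data). The correlation for leaf over meristem was 0.20 with neighbours among eligible loci only. With 1 model per table and lengths within 10%, 14 pairs remained, all 3 counts were 0, and the correlations for leaf over meristem and stem over meristem were -0.061 and 0.30. With 14 pairs these say little. The same-direction shares for leaf over stem lay between 58.3% (both loci at 10 CPM, 48 pairs, where tail-to-tail pairs had 53.1%) and 71.4%. The lowest of them was barely inside the interval of the main value. Counting error limits the folds of low members, whose lowest count was 5 fragments, and 154, 166 and 151 of the 244 member loci reached the minimum level for a call in the 3 comparisons.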

Other observations

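The strand labels can be checked against gene structure. In 63973 models with 3 or more exon blocks, the last exon by label had a median of 332 bases and the first 180 bases, and the first intron a median of 239 bases and the last 183. The last exon was the longer in 66.4% of these models, and the first intron in only 54.9%. Models of all tissues were pooled, so a locus can enter more than once, and member loci were not checked apart. In plants the last exon and the first intron are usually the longer ones, so the labels point the usual way, by a small margin for introns.

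A pair of pairs looked alike, and was noticed after the values were seen. On contigs 005027F and 005047F, head-to-head loci lay 223 bases apart in each, with right loci of 7 exons in every tissue and left loci of 2278 and 2275 bases of exon in leaf. The right loci had 129 and 140 normalised CPM in leaf, 51.5 and 39.9 in stem, and 158 and 159 in meristem. The left loci had 11.7 and 6.17 in leaf, 18.0 and 13.1 in stem, and 18.0 and 10.9 in meristem. Whether they are copies of 1 region was not tested, since no sequence of this assembly was used here.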
